A study of Mus musculus with 6 samples.

Results

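The SLC amino acid transporters described here were the genes of the solute carrier families SLC1, SLC3, SLC6, SLC7, SLC36, SLC38 and SLC43. The rule that picks them reads the gene symbol and no measured value. Of the 17975 genes in the table, 57 carried such a symbol (6 of SLC1, 2 of SLC3, 17 of SLC6, 14 of SLC7, 4 of SLC36, 11 of SLC38 and 3 of SLC43). Counts were high enough for a test in 35 of the 57, among 13805 tested genes in all. The family names follow sequence relatedness, so some of the 57 carry other substrates. Slc6a8 takes up creatine, Slc6a4 serotonin and Slc43a3 purine nucleobases.

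RNA-seq was performed on liver tissue of 3 WT mice and 3 Hom mice. Hom mice were NEK7fl/fl-Alb-Cre(+), in which the albumin promoter drives Cre recombinase in hepatocytes and the floxed kinase gene Nek7 is removed there. The labels give the 3 sequenced WT mice only as WT. Whether each carried a floxed allele without Cre or Alb-Cre(+) alone is not given in the sources used here, nor are the single ages and sexes of the 6 mice. The paper's reporting summary gives a general age range and states that both sexes were used in work with knockout mice. It places the sex of each mouse in source data that were not used here. Whole liver was sequenced, so non-parenchymal cells contributed RNA, and in such bulk samples fewer cells of a type cannot be told apart from less RNA per cell.

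Each cell imports amino acids through several carriers with overlapping substrates. System A and system N carriers of the SLC38 family bring in glutamine, alanine and other small neutral amino acids with sodium, whereas SLC7 light chains paired with an SLC3 heavy chain mostly exchange one amino acid for another. In the liver these carriers feed ureagenesis, glutathione synthesis, gluconeogenesis and protein synthesis. Several of them are induced through the transcription factor ATF4 when amino acids run short.

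Each library held 19349418 to 19730236 estimated reads assigned to genes. Nek7 had 1127, 1077 and 1036 counts in WT livers and 310, 439 and 387 in Hom livers (log2 fold change -1.99, SE 0.10, adjusted p = 1.59e-04). WT replicate 1 stood apart from the other WT livers, with a chi-square per degree of freedom of 134 and 152 against them where those differed by 22.3 from each other. Hom replicate 1 likewise differed by 80.8 and 75.6 from the other Hom livers, which differed by 25.3. It held 0 counts of the Y-linked Ddx3y against 630 to 1125 in the other 5 livers, and 0 of Kdm5d against 243 to 382. That is the pattern of a female liver among male livers, though no sex per mouse is given in the sources used here. Summed hepatocyte markers (39 genes, 23 lower and 2 higher in Hom) were 240888 to 279512 CPM in WT livers, against 124817 to 183247 CPM among Hom livers, highest of the Hom livers in replicate 1. Marker sums moved the other way for cholangiocytes (86.5 to 114 against 711 to 965 CPM, 13 of 14 genes higher) and stellate cells (455 to 541 against 950 to 1029 CPM, 11 of 19 higher and 2 lower). Endothelial markers summed to 323 to 429 CPM in WT and 259 to 263 CPM in Hom livers, with 6 of 13 lower. Macrophage markers summed to 429 to 1009 CPM (WT) and 939 to 1264 CPM (Hom) (6 of 19 higher, 2 lower), and lymphocyte markers from 8.47 to 13.6 and 13.2 to 22.5 CPM (3 of 10 tested genes higher). None of these markers was at 0 in all livers, and the part that cell makeup had in the transporter values below was not tested.

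Levels were first ordered by FPKM, fragments scaled by transcript length and library size, which allows genes of different length to be compared. Slc38a3, the system N carrier SNAT3 for glutamine, histidine and asparagine, had the highest FPKM of the 57 in WT livers at 534 ± 77.7 (SD, n = 3). Slc38a4, the system A carrier SNAT4, followed at 229 ± 30.9. Slc6a13, the GABA and taurine carrier GAT2, came next at 91.1 ± 12.7, and after it Slc7a2, the cationic amino acid carrier CAT2, at 66.1 ± 15.9. The livers of Slc38a3 and Slc38a4 did not overlap, nor did those of Slc38a4 and Slc6a13, whereas from Slc6a13 down to Slc6a6 each neighbouring pair in the order overlapped. The next gene was Slc38a2 at 43.2 ± 14.8, followed by Slc6a12 at 33.5 ± 1.15 and Slc3a1 at 30.0 ± 8.58. In all, 23 of the 57 had a mean FPKM above 1 in WT livers.

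The first 4 places were held by the same genes in Hom livers, at 505 ± 89.2 for Slc38a3, 228 ± 13.5 for Slc38a4, 98.0 ± 2.49 for Slc6a13 and 66.4 ± 25.6 FPKM for Slc7a2. Below them the order changed. Slc38a2 went from rank 5 to rank 10 with a Hom FPKM of 18.9 ± 1.49, and the taurine carrier gene Slc6a6 went from rank 10 to rank 5 with 17.5 ± 5.81 in WT and 35.0 ± 2.77 FPKM in Hom livers. The 10 most abundant genes of WT liver took 18.8 to 20.6% of the counts in WT livers but 11.7 to 13.6% in those of Hom mice, which FPKM does not correct for, so groups were compared on TMM-scaled counts in CPM, scaled to a common library size. On that scale Slc38a3, Slc38a4 and Slc7a2 together held 65.5 to 77.8% of the summed CPM of the 57 in WT livers, and the Hom livers gave 65.9 to 72.3%. The sum itself was 3883, 5061 and 4172 CPM in WT replicates 1 to 3 and 4014, 2901 and 2964 CPM in Hom replicates 1 to 3, so that Hom replicate 1 lay within the WT range and the other Hom livers below it.

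**Figure D1:**
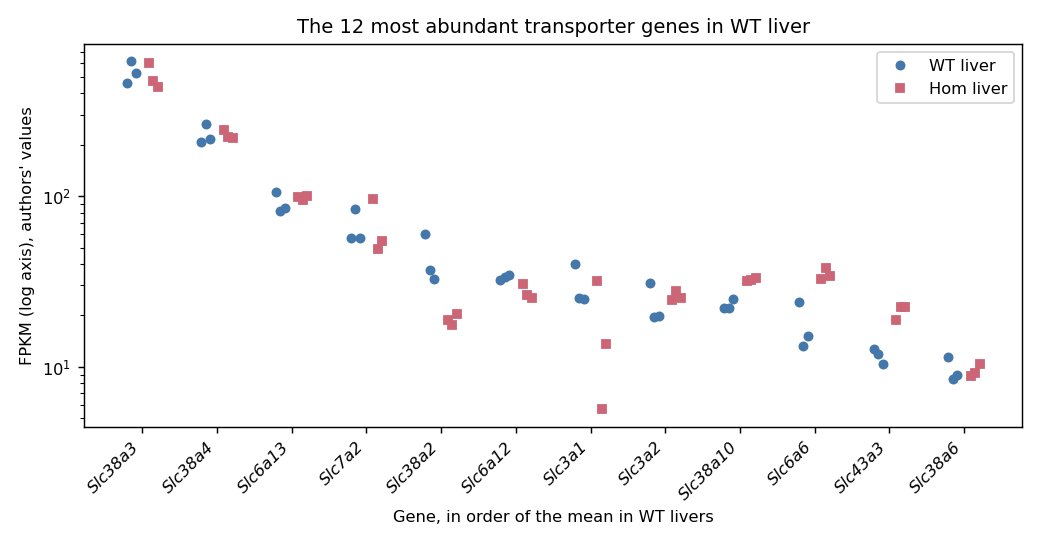
FPKM (log axis) of the 12 transporter genes with the highest mean in WT liver, 1 point per liver, blue circles for WT and red squares for Hom. Slc38a3 and Slc38a4 lead in both groups, Slc38a2 drops from a WT mean of 43.2 to 18.9 FPKM in Hom livers, and Slc3a1 is spread widest among the Hom livers.

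Of the 35 tested transporters, 5 were lower in Hom than in WT livers, 9 were higher and 21 did not pass the threshold (adjusted p under 0.05, edgeR quasi-likelihood test, Benjamini-Hochberg over all 13805 genes). Across all tested genes 20.1% were lower and 21.5% higher, 41.7% in either direction, beside 40.0% of the transporters, so as a set they changed about as often as other genes. The median log2 fold change was 0.04 over the 35 and -0.00 over all tested genes, with single values from -2.29 to 3.06. The livers of the groups did not overlap for 9 tested transporters with Hom below WT and 13 with Hom above, beside 27.0% and 28.7% of all tested genes, and the 14 that passed were among these. With 1 liver left out, 8 were lower without Hom replicate 1, 3 were lower without WT replicate 2, Hom replicate 2 or Hom replicate 3, and 5 were higher without Hom replicate 3. In each of the 6 fits that leave out 1 liver 8 genes passed, 3 lower (Slc38a2, Slc6a12, Slc38a6) and 5 higher (Slc6a8, Slc43a2, Slc1a5, Slc43a3, Slc7a7). Scaling to library size alone, which moved the median of all genes up by 0.45, gave 3 lower and 17 higher transporters, and 91.1% of all calls were then higher in place of 51.7%.

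**Figure D2:**
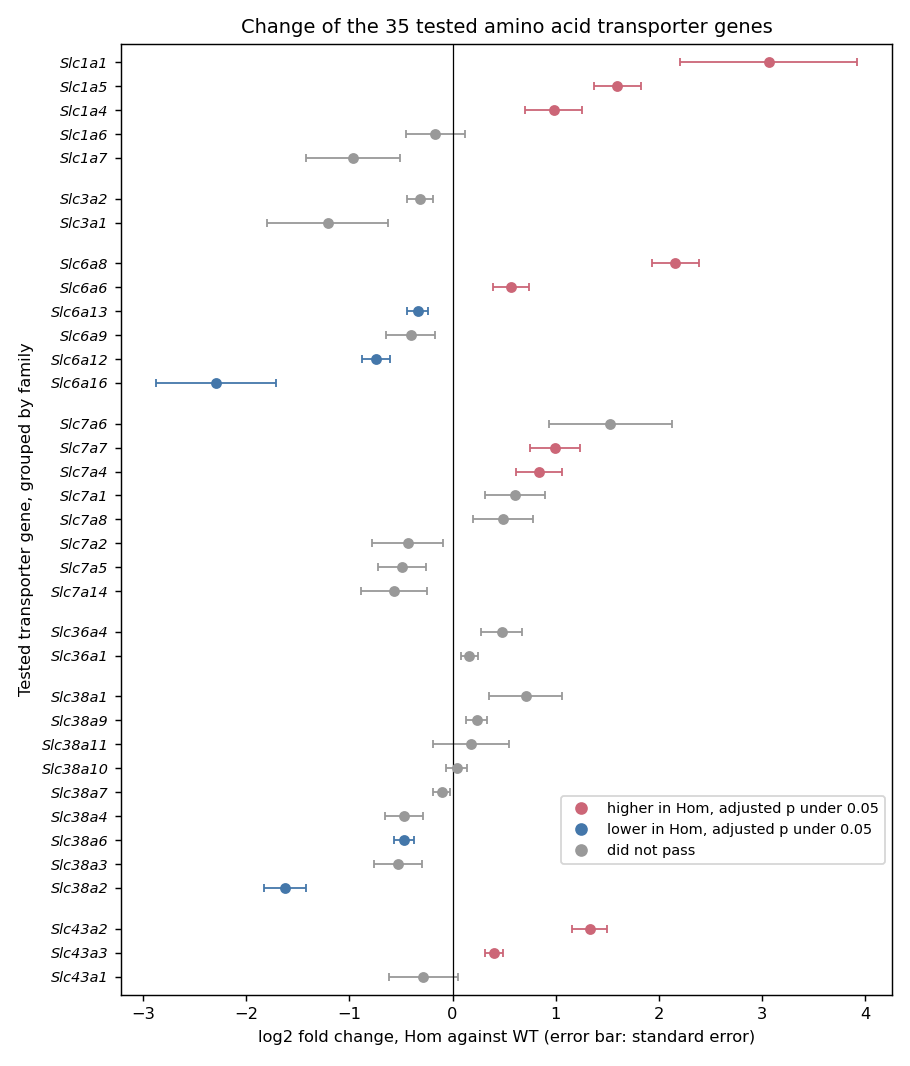
Log2 fold change of each of the 35 tested transporter genes, Hom against WT, grouped by family, with the standard error as the bar. Red marks genes that passed as higher, blue as lower and grey those that did not pass; the values run from -2.29 for Slc6a16 to 3.06 for Slc1a1.

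In the SLC38 family, the sodium-coupled neutral amino acid carriers, 2 of 9 tested genes were lower in Hom livers and 0 higher, with a family median of -0.11 on the log2 scale. As higher, 0 passed by DESeq2 or at an unadjusted p under 0.05 in edgeR, whereas 1 passed with upper-quartile factors, 1 without WT replicate 1 and 4 with library size alone, which left 1 lower. Beside this and each family count below stand 20.1% lower and 21.5% higher among all tested genes. Slc38a2 encodes SNAT2, the system A carrier that cells induce when amino acids are scarce. It was at 299.8, 209.8 and 180.6 CPM in the WT livers and 79.7, 65.1 and 79.0 CPM in the Hom livers. All Hom livers lay well below the lowest WT liver, and the means were 230 ± 62.1 and 74.6 ± 8.21 CPM. The fall was 3.08-fold (log2 fold change -1.62, SE 0.20, adjusted p = 0.00144). Slc38a6, a less well characterised member, stood at 57.7, 49.3 and 50.1 CPM in WT and 38.1, 34.8 and 40.6 CPM in Hom livers. Its groups did not overlap either, with a smaller log2 fold change of -0.47 (SE 0.097, adjusted p = 0.00936), which became -0.02 (adjusted p = 0.912) with library size alone.

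The most abundant members of the family gave less certain differences. Slc38a3 was at 1208, 1864 and 1533 CPM in WT livers and 1359, 937 and 895 CPM in Hom livers. Hom replicate 1 lay between the WT livers, and the log2 fold change of -0.53 had a 95% interval from -1.08 to 0.02 (adjusted p = 0.108). Slc38a4 showed 864, 1270 and 1002 CPM in WT livers and 868, 693 and 707 CPM in Hom livers. Here too Hom replicate 1 reached the lowest WT liver, and the log2 fold change was -0.47 (adjusted p = 0.0794). Without Hom replicate 1, Slc38a3 passed at -0.75 (adjusted p = 0.0348). Without WT replicate 1, Slc38a4 passed at -0.59 (adjusted p = 0.0415). With DESeq2 on all 6 livers both passed as lower (adjusted p of 0.0352 and 0.0197).

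The widely expressed system A carrier Slc38a1 (SNAT1) was low, at 2.57, 1.03 and 1.60 CPM in WT livers and 2.38, 2.85 and 3.32 CPM in Hom livers. Through WT replicate 1 the groups overlapped, and 0.71 as a log2 fold change did not pass (adjusted p = 0.146), though it did at 1.11 without that liver (adjusted p = 0.0342). Slc38a9, the lysosomal arginine sensor of mTORC1, had a log2 fold change of 0.23 (adjusted p = 0.111) and Slc38a7, a lysosomal glutamine and asparagine exporter, -0.11 (adjusted p = 0.325). Slc38a10 stood at 0.04 (adjusted p = 0.788) and Slc38a11 at 0.18 (adjusted p = 0.721). None of these 4 passed at TMM scaling. Slc38a5 and Slc38a8 had too few counts to be tested.

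SLC6 carriers couple uptake to sodium and chloride. Of 6 tested, 3 were lower and 2 higher in Hom livers, with a median of -0.37. Slc6a12 (BGT1), which takes up the osmolyte betaine and GABA, was at 81.2, 96.6 and 97.1 CPM in WT livers and 65.1, 49.6 and 49.7 CPM in Hom livers. Every Hom liver was below every WT liver, a 1.67-fold fall (log2 fold change -0.74, SE 0.13, adjusted p = 0.00579). Its neighbour in function Slc6a13 was at 236, 216 and 215 CPM in WT and 191, 162 and 175 CPM in Hom livers. The groups were separate but close, with a log2 fold change of -0.34 (SE 0.099, adjusted p = 0.0314). Slc6a13 kept its direction but missed the threshold in the 5 fits without a single liver other than Hom replicate 1 (adjusted p of 0.0647 to 0.101), and it was at 0.11 with library size alone (adjusted p = 0.455). Slc6a16, an orphan member whose livers are given after its values were seen, was barely above the filter at 0.838, 1.54 and 1.29 CPM in WT and 0.0467, 0.330 and 0.345 CPM in Hom livers. It was lower by -2.29 (SE 0.58, adjusted p = 0.0196) on the log2 scale, and missed the threshold without WT replicate 2, Hom replicate 2 or Hom replicate 3 (adjusted p of 0.0709, 0.0543 and 0.0528).

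Slc6a8, the creatine carrier, had the smallest adjusted p of all 35. Its values were 10.2, 6.03 and 9.22 CPM in WT livers and 47.0, 32.4 and 34.2 CPM in Hom livers. The lowest Hom liver was thus far above the highest WT liver, a 4.46-fold rise (log2 fold change 2.16, SE 0.23, adjusted p = 0.000899). The taurine carrier gene Slc6a6 was at 154, 97.0 and 107 CPM in WT and 178, 182 and 168 CPM in Hom livers. WT replicate 1 came near the Hom livers, which were close to each other. Its 1.48-fold rise (log2 fold change 0.56, SE 0.17, adjusted p = 0.0372) missed the threshold in the 5 fits without a single liver other than WT replicate 1 (adjusted p of 0.0721 to 0.113). The taurine and GABA carriers of the family therefore did not move one way, with Slc6a12 and Slc6a13 lower and Slc6a6 higher on the TMM scale. The glycine carrier gene Slc6a9 had a log2 fold change of -0.40 (adjusted p = 0.211).

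**Figure D3:**
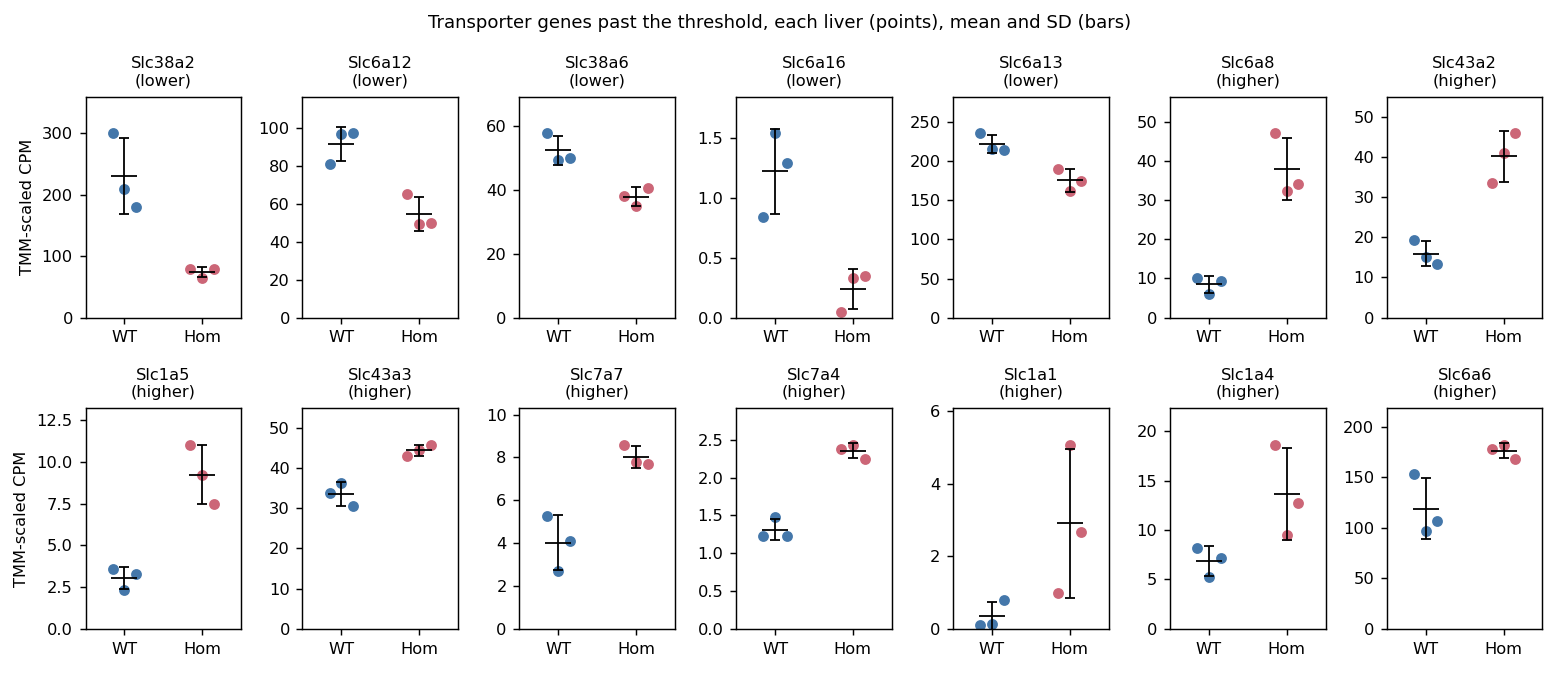
TMM-scaled CPM of the 14 transporter genes past the threshold, 1 panel per gene with its own axis from 0, each liver as a point (blue WT, red Hom) with the mean and SD. Groups are separate in every panel, by far for Slc6a8 and Slc38a2, and narrowly for Slc1a1, where the WT livers reach 0.799 and the Hom livers start at 0.980 CPM.

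The SLC1 family holds the glutamate carriers and the neutral amino acid exchangers ASCT1 and ASCT2. Of its 5 tested genes 3 were higher in Hom livers and 0 were lower, the same counts as by DESeq2 or at an unadjusted p under 0.05 in edgeR, with a median of 0.98. Slc1a5 (ASCT2), a glutamine exchanger that is abundant in proliferating cells, was at 3.57, 2.31 and 3.26 CPM in WT livers and 11.0, 9.19 and 7.50 CPM in Hom livers. The groups were far apart, a 3.02-fold rise (log2 fold change 1.59, SE 0.23, adjusted p = 0.00241). Slc1a4 (ASCT1), which carries serine, alanine and cysteine, was at 8.21, 5.26 and 7.19 CPM in WT and 18.6, 9.48 and 12.8 CPM in Hom livers. Hom replicate 1 was the highest of the 3. The rise was 1.97-fold (log2 fold change 0.98, SE 0.28, adjusted p = 0.0289), and it missed the threshold without WT replicate 2 or 3 or Hom replicate 1 or 3 (adjusted p of 0.0937, 0.0666, 0.062 and 0.0655). Slc1a1 (EAAC1), which brings in glutamate, aspartate and cysteine, was at 0.112, 0.128 and 0.799 CPM in WT and 0.980, 5.07 and 2.67 CPM in Hom livers. Both groups were widely spread and WT replicate 3 came close to Hom replicate 1. The log2 fold change of 3.06 (SE 0.86, adjusted p = 0.0278) was the highest of the 35 and missed the threshold without WT replicate 1 or 2 or Hom replicate 2 or 3 (adjusted p of 0.069 to 0.0938). Slc1a6 and Slc1a7, glutamate carriers of brain and retina, had log2 fold changes of -0.17 (adjusted p = 0.66) and -0.97 (adjusted p = 0.13).

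SLC7 genes encode the cationic amino acid carriers and the light chains of the heteromeric exchangers, whose heavy chains come from SLC3. In SLC7, 2 of 8 tested genes were higher and 0 lower by edgeR, and 3 and 0 either by DESeq2 or at an unadjusted p under 0.05 in edgeR, with a median of 0.55. Slc7a7 encodes y+LAT1, which exports cationic amino acids in exchange for neutral ones. It was at 5.25, 2.69 and 4.12 CPM in WT livers and 8.59, 7.79 and 7.67 CPM in Hom livers, with the Hom livers close together above all WT livers. The rise was 1.99-fold (log2 fold change 0.99, SE 0.24, adjusted p = 0.0171). Slc7a4, an orphan relative of the cationic carriers, was at 1.23, 1.47 and 1.23 CPM in WT and 2.38, 2.43 and 2.24 CPM in Hom livers. These narrow groups gave a log2 fold change of 0.84 (SE 0.22, adjusted p = 0.0227) that missed the threshold in the 5 fits without a single liver other than WT replicate 2 (adjusted p of 0.0506 to 0.0902).

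Slc7a6 (y+LAT2), the paralog of Slc7a7, is named here after its values were seen. It was at 0.447, 0.321 and 1.84 CPM in WT livers and 2.19, 2.76 and 2.59 CPM in Hom livers. All Hom livers were above all WT livers, but WT replicate 3 stood near them, and the log2 fold change of 1.53 had an adjusted p of 0.0776. Without WT replicate 3 it was 2.68 (adjusted p = 0.00434), and with DESeq2 on all livers it passed (adjusted p = 0.0406).

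The cationic carrier pair gave no passing change. Slc7a2 (CAT2), the liver-enriched form, was at 473, 804 and 523 CPM in WT livers and 677, 304 and 351 CPM in Hom livers. Hom replicate 1 lay inside the WT range and the other Hom livers below it. The log2 fold change was -0.43 with a 95% interval from -1.25 to 0.38 (adjusted p = 0.342), and -0.88 without Hom replicate 1 (adjusted p = 0.0392). Slc7a1 (CAT1), the widely expressed form, was at 1.40, 1.80 and 2.70 CPM in WT and 2.57, 3.05 and 3.32 CPM in Hom livers. WT replicate 3 overlapped the Hom livers. Its log2 fold change was 0.60 (adjusted p = 0.137), and 0.90 without WT replicate 3 (adjusted p = 0.0454).

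Of the large neutral amino acid exchangers, Slc7a5 (LAT1) was at 4.02, 3.66 and 4.42 CPM in WT livers and 3.17, 2.10 and 3.32 CPM in Hom livers. The groups were separate, but the log2 fold change of -0.49 did not pass (adjusted p = 0.129). Slc7a8 (LAT2) had 0.49 (adjusted p = 0.21) and passed at 0.90 without WT replicate 1 (adjusted p = 0.0094). Slc7a14 stood at -0.57 (adjusted p = 0.193). Of the SLC3 heavy chains 0 of 2 passed by edgeR or DESeq2, with Slc3a2 at an unadjusted p under 0.05 in edgeR. Slc3a2 (CD98), given by liver after its values were seen, was at 72.5, 54.3 and 54.2 CPM in WT and 51.0, 47.0 and 47.4 CPM in Hom livers, with all Hom livers a little below the WT livers and a log2 fold change of -0.32 that did not pass (adjusted p = 0.0857).

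Slc3a1 encodes rBAT, the heavy chain that pairs with Slc7a9 to carry cystine and cationic amino acids, and was singled out after its values were seen. It was at 97.6, 70.8 and 67.2 CPM in WT livers and 66.1, 10.3 and 25.6 CPM in Hom livers. Hom replicate 1 was just below the WT livers while the other Hom livers were far lower. The log2 fold change was -1.21 (SE 0.58, adjusted p = 0.137) with all livers and -2.13 without Hom replicate 1 (adjusted p = 0.0107). Its light chain Slc7a9 had 0, 0 and 0 counts in WT livers and 7, 1 and 0 counts in Hom livers, too few to be tested. Slc3a1, Slc7a2 and Slc38a3 shared the pattern of a Hom replicate 1 nearer to the WT livers than the other Hom livers. That liver also had the highest hepatocyte marker sum of the Hom livers, at 183247 CPM against 124817 and 143000 CPM. Single markers of the sum went both ways in it. Hp was at 9721 CPM, above all WT livers, while Cyp2e1 was at 396 CPM, below the other Hom livers at 1399 and 1401 CPM. Hom replicate 1 was also the only liver with 0 counts of the Y-linked Ddx3y, so sex cannot be told apart from cell makeup here. The part of either in these values was not tested.

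**Figure D4:**
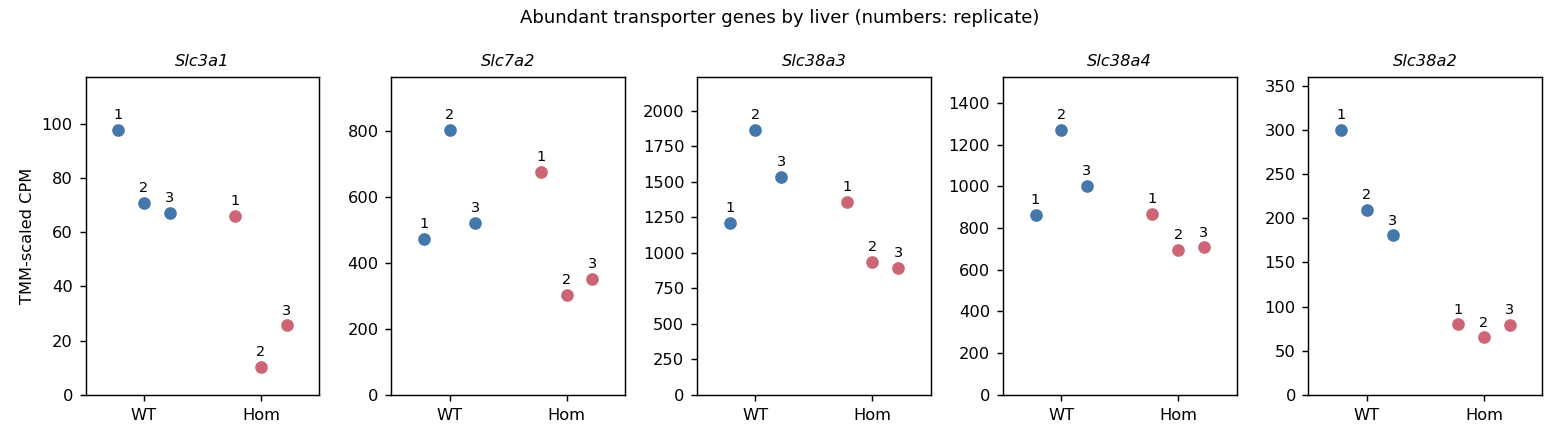
TMM-scaled CPM of 5 abundant transporter genes, 1 point per liver with its replicate number, axes from 0. Hom replicate 1 lies within or next to the WT range for Slc3a1, Slc7a2, Slc38a3 and Slc38a4, whereas for Slc38a2 it lies with the other Hom livers at 79.7 CPM.

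In the SLC43 family 2 of 3 tested genes were higher and 0 lower, by edgeR with or without adjustment of p and by DESeq2, with a median of 0.41. Slc43a2 (LAT4), which lets branched-chain amino acids, phenylalanine and methionine pass without sodium, was at 19.4, 15.0 and 13.5 CPM in WT livers and 33.5, 41.1 and 45.9 CPM in Hom livers. The groups were well apart, a 2.51-fold rise (log2 fold change 1.33, SE 0.17, adjusted p = 0.00168). Slc43a3 was at 33.7, 36.3 and 30.5 CPM in WT and 42.9, 44.5 and 45.7 CPM in Hom livers, a smaller rise without overlap (log2 fold change 0.41, SE 0.086, adjusted p = 0.0103). Slc43a1 (LAT3), with substrates like those of LAT4, was at 6.20, 9.88 and 10.1 CPM in WT and 10.9, 5.19 and 5.43 CPM in Hom livers. Hom replicate 1 was the highest of all 6 livers and the other Hom livers were the lowest, with a log2 fold change of -0.28 (adjusted p = 0.528).

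The SLC36 family of amino acid carriers had 2 tested genes, and 0 passed in either direction by edgeR or by DESeq2, with 1 of them (Slc36a4) at an unadjusted p under 0.05. The lysosomal carrier gene Slc36a1 had a log2 fold change of 0.16 (adjusted p = 0.15) and Slc36a4, a tryptophan and proline carrier, 0.48 (adjusted p = 0.0971). Both passed as higher with library size alone, at 0.62 (adjusted p = 0.00121) and 0.91 (adjusted p = 0.0104), relative to a median of all genes that this scaling moved to 0.45.

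For 4 pairs a ratio within each liver set a carrier enriched in hepatocytes against a widely expressed carrier of similar substrates, free of the scaling between libraries. With 3 livers in each group the exact two-sided permutation test cannot go below p = 0.1. The FPKM ratio of Slc38a3 to Slc38a2 was 7.69, 16.8 and 16.0 in WT livers and 32.3, 26.9 and 21.3 in Hom livers. Every Hom liver was above every WT liver, by 2.07-fold on average (exact permutation p = 0.1, the smallest possible). The ratio of Slc7a2 to Slc7a1 was 316, 402 and 178 in WT and 239, 92.1 and 97.7 in Hom livers, where Hom replicate 1 lay among the WT livers (exact permutation p = 0.2). For Slc38a4 to Slc38a1 it was 607, 2200 and 1201 in WT and 676, 452 and 384 in Hom livers, again with Hom replicate 1 above the lowest WT liver (exact permutation p = 0.2). Slc43a1 to Slc7a5 gave 2.24, 3.89 and 3.34 in WT and 4.92, 3.47 and 2.28 in Hom livers (exact permutation p = 0.7). The groups overlapped, with Hom replicate 1 above every WT liver. None of the 4 could pass a threshold of 0.05 in this design.

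The 22 untested genes were at or near 0, 17 of them with at most 10 counts in any liver and the highest single value 38. They included the glutamate carrier Slc1a3, SLC6 genes (Slc6a2, Slc6a4, Slc6a5, Slc6a7, Slc6a14, Slc6a15, Slc6a17, Slc6a18, Slc6a19, Slc6a21), 6 of SLC7 (Slc7a3, Slc7a9, Slc7a10, Slc7a11, Slc7a13, Slc7a15), Slc36a2, Slc36a3, Slc38a5 and Slc38a8. Many of these are known from kidney, intestine or brain. Named after their counts were seen, Slc7a15 had 0, 1 and 0 counts in WT livers and 21, 8 and 9 in Hom livers, all Hom livers above. Slc6a14, a broad neutral and cationic carrier, had 2, 2 and 38 counts in WT livers and 8, 0 and 1 in Hom livers. Slc7a11, the cystine and glutamate exchanger xCT, had 3, 3 and 20 counts in WT and 4, 5 and 4 in Hom livers. Both of these, like Slc6a4 with 1, 3 and 25 in WT and 8, 1 and 5 in Hom livers, were highest in WT replicate 3 alone.

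Because several of these genes are known ATF4 targets, promoter windows of RefSeq (GRCm38.p6, from 250 bases before to 50 bases after each start) were searched on both strands for the core of the amino acid response element, TGATGNAA, which reads TTNCATCA on the other strand. It occurred in 1304 of 32851 windows (3.97%), or in 1219 of 27025 genes (4.51%). Of the 57 transporters 40 had a window, and 4 of them held a match (10%), namely Slc1a4, Slc7a7, Slc7a11 and Slc6a21. A match of letters in such a window is not a binding site, and a window without it says nothing of ATF4. The stretches from 40 bases before the first match to just past the start site are shown for 3 of the 4, the pair that rose in Hom livers and xCT, with matches in capitals and each written 5′ to 3′ on the gene's strand. All 3 lie on the minus strand, Slc1a4 at chr11:20332702-20332757, Slc7a7 at chr14:54417933-54418125 and Slc7a11 at chr3:50443613-50443719. The match of Slc1a4 began 4 bases before its start, those of Slc7a7 141 and 1, and those of Slc7a11 66 and 47 bases before.
Slc1a4: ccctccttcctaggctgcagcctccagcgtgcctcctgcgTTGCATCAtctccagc
Slc7a7: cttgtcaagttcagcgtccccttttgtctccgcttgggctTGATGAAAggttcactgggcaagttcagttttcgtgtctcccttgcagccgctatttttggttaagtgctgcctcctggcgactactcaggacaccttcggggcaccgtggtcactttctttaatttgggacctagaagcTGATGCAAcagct
Slc7a11: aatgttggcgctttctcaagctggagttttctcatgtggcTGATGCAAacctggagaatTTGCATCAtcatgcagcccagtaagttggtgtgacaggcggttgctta

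The other genes of amino acid handling were described from 6 lists, and a few genes stand in more than 1. Among known ATF4 pathway genes 14 of 37 tested were lower and 5 higher in Hom mice, and the list's median was -0.40 on the log2 scale, beside 20.1% lower and 21.5% higher among all tested genes. Scaled by library size alone, the same list had 2 lower and 7 higher genes. Of the lower genes Mars1, methionyl-tRNA synthetase, had the smallest adjusted p (log2 fold change -0.90, SE 0.083, adjusted p = 0.000603). Of the higher ones it was the stress-induced factor gene Atf3, with 2.01, 1.41 and 0.614 CPM in WT and 10.1, 9.44 and 8.10 CPM in Hom livers (log2 fold change 2.76, adjusted p = 0.00187). Atf4 itself, named after its value was seen, was lower (log2 fold change -0.67, adjusted p = 0.0122), but not with library size alone (-0.22, adjusted p = 0.344). Slc38a2, which cells induce through ATF4, fell in these same livers, while Slc1a4, Slc1a5 and Slc7a7 rose.

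Beside the shares over all tested genes, 20.1% lower and 21.5% higher, stands the list of amino acid sensing by mTORC1. Its genes were lower in 9 of 37 and higher in 1 of 37, with a median of -0.12. The single higher gene was Rragd, which encodes a Rag GTPase that brings mTORC1 to the lysosome when amino acids are plentiful. It was at 2.57, 1.86 and 1.60 CPM in WT livers and 83.1, 77.9 and 60.7 CPM in Hom livers, 36.5-fold higher (log2 fold change 5.19, SE 0.21, adjusted p = 9.42e-05). Deptor, an inhibitory partner of mTOR, had the smallest adjusted p of the lower genes (log2 fold change -0.94, SE 0.10, adjusted p = 0.000984). With library size alone the list had 1 lower and 19 higher genes.

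Enzymes that use or make glutamine and glutamate were lower in 5 of 15 and higher in 2 of 15, with a median of -0.44. Got2, the mitochondrial aspartate aminotransferase, led the lower genes (log2 fold change -0.80, SE 0.12, adjusted p = 0.00292). Ctps, which uses glutamine to make CTP, led the higher ones (log2 fold change 1.70, SE 0.19, adjusted p = 0.00114). The glutamine synthetase gene Glul, named after its value was seen, was lower at -1.06 (adjusted p = 0.0357) and missed the threshold without WT replicate 1 (adjusted p = 0.0745) and with library size alone (-0.58, adjusted p = 0.199). The lower count of 5 in this list, beside 20.1% of all tested genes, was 10 without Hom replicate 1 and 1 with library size alone. Glutamine carriers thus differed in direction beside these enzymes, with Slc38a2 lower and Slc1a5 higher.

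Over all tested genes 20.1% were lower and 21.5% higher, to be set beside each list of this paragraph. Arginine and urea cycle enzymes were lower in 3 of 12 and higher in 1 of 12 (median -0.24), or lower in 7 without Hom replicate 1. Agmat, which hydrolyses agmatine, led the lower genes (log2 fold change -1.27, SE 0.10, adjusted p = 0.000409). The higher gene was Nos2, the inducible nitric oxide synthase, which was near 0 in WT livers (0.168, 0 and 0.123 CPM) and at 1.35, 1.48 and 1.72 CPM in Hom livers (adjusted p = 0.00303). Glutathione and cysteine genes were lower in 7 of 15 and higher in 4 of 15 (median -0.29), with 2 higher in place of 4 without Hom replicate 1, and 2 lower in place of 7 with library size alone. Gclc, the catalytic subunit of glutamate-cysteine ligase, had a log2 fold change of -1.50 (SE 0.24, adjusted p = 0.00382) and Ggt6, a gamma-glutamyltransferase, 1.13 (SE 0.14, adjusted p = 0.00165). Of the partners of these transporters and other amino acid carriers, 4 of 11 tested were lower and 0 higher by edgeR or DESeq2, with 0 higher at an unadjusted p under 0.05 in edgeR too, and a median of -0.40. With library size alone 1 was lower and 2 were higher. The lowest adjusted p there was that of Slc17a8, a vesicular glutamate carrier, at 7.43, 20.1 and 10.3 CPM in WT and 0.747, 2.68 and 1.47 CPM in Hom livers (log2 fold change -2.94, SE 0.53, adjusted p = 0.00589).

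**Figure D5:**
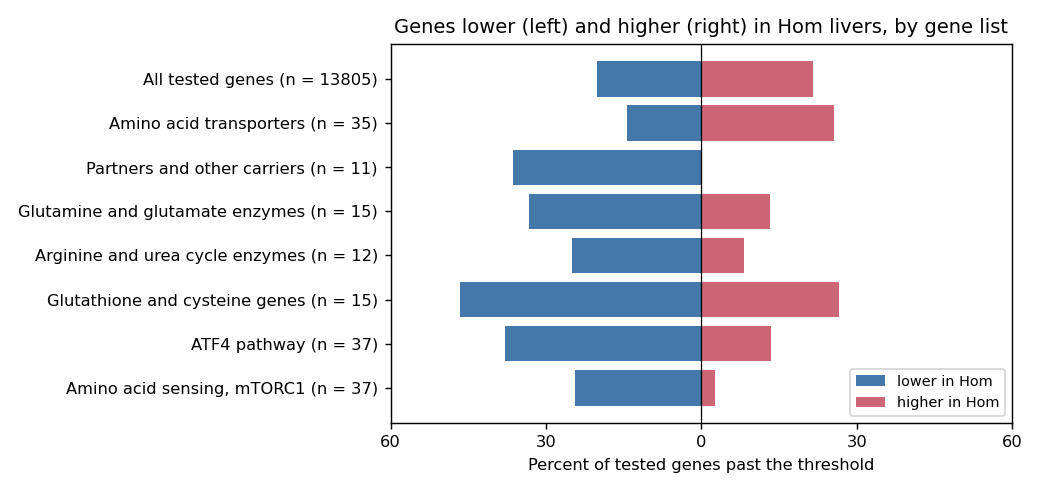
Percent of the tested genes of each list that passed as lower (blue, left) or higher (red, right) in Hom livers, beside all 13805 tested genes. The transporters have 5 lower and 9 higher of 35, and the other 6 lists each have more lower than higher genes on the TMM scale.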

How the data were processed

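The authors sequenced liver RNA on a DNBSEQ platform, and the deposited table gave an expected count, an FPKM and a TPM value per gene and liver. Per the labels, the submitters' processing notes name HISAT2 2.0.4, Bowtie2 2.2.5, RSEM 1.2.12 and the genome build mm9, and the annotation and strand setting are not given in the sources used here. Of the deposited counts 65.9% were whole, and all were rounded. Deposited group means carry crossed names and were not used. TPM values served only in place of FPKM as an alternative for the ratios. Genes were matched by symbol, and reads that near-identical relatives may share were left as the authors assigned them. A few genes of these families and lists are not reported here.

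Counts were filtered with filterByExpr, scaled by TMM and tested with the quasi-likelihood test of edgeR 4.0.16 (R 4.3.3) on all 6 livers, with Benjamini-Hochberg adjustment over all tested genes, a threshold of 0.05 and no minimum fold. The SE was taken from the F statistic. The test was checked on simulated data. Each liver came from 1 mouse. No library was a copy of another (chi-square per degree of freedom within groups at least 22.3). Members and lists were chosen with earlier results of these data known. Values per liver are given for members that passed and averaged 1 CPM or more, for the 6 members with the highest mean FPKM and for the members of the ratios, and for each list the genes with the smallest adjusted p in each direction are named. Further genes are marked as named after their values were seen. Alternatives were DESeq2 1.42.0, other scaling factors and filters, a replicate block, correction for gene length, a minimum fold, and leaving out each liver.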

Additional observations from a re-analysis of the deposited data

How the results depend on the processing

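Slc38a2, Slc6a12, Slc6a8, Slc43a2, Slc1a5, Slc43a3 and Slc7a7 kept direction and call under the alternative tools, scalings and filters run and without each liver. Over single members 416 of 485 comparisons kept both, 34 lost the call, 23 gained it and 12 reversed. The causes were not tested. Library size alone gave 642 lower and 6574 higher genes in all, and 3 lower and 17 higher members with a median of 0.50. Its members higher were 3 of SLC1, 2 of SLC6, 4 of SLC7, 2 of SLC36, 4 of SLC38 and 2 of SLC43. Its members lower were 2 of SLC6 and 1 of SLC38. It reversed Slc6a13 (0.11), Slc3a2 (0.13), Slc7a2 (0.0079), Slc1a6 (0.28), Slc6a9 (0.058), Slc38a7 (0.35) and Slc43a1 (0.16). Chosen after seeing the data, the same scaling of the lists gave lower counts of 1 partner or other carrier, 1 glutamine, 2 glutathione, 2 ATF4 and 1 mTORC1 gene, and higher counts of 2 other carriers, 2 arginine and 19 mTORC1 genes, and DESeq2 gave 2 higher mTORC1 genes. Upper-quartile factors gave 1 higher gene each in SLC36 and SLC38 and a median of 0.13, and DESeq2 4 lower in SLC38. With correction for gene length SLC6 had 1 higher gene and the median was -0.047, the value of Slc38a10. A minimum log2 fold change of 1 left 575 lower and 1825 higher genes in all, 2 lower and 4 higher members, 1 lower each in SLC6 and SLC38, 1 higher each in SLC6 and SLC43, and 0 higher in SLC7. Replicate numbers did not pair the livers, which came from different mice (correlations of same-numbered deviations of -0.11, -0.06 and -0.05). With a replicate block 6 members were lower and 8 higher, with 1 lower in SLC3 (Slc3a1) and 1 higher in SLC7. A replicate block with gene length correction gave 1 lower in SLC3, 1 higher each in SLC6 and SLC7, a median of -0.043, again that of Slc38a10. Leaving out each liver gave 1767 to 2750 lower and 1986 to 3057 higher genes in all, 3 to 8 lower and 5 to 9 higher members, and a median of -0.067 to 0.15. By family it gave 1 to 2 higher in SLC1, 0 to 1 lower in SLC3, 1 to 3 lower and 1 to 2 higher in SLC6, 0 to 1 lower and 1 to 3 higher in SLC7, 2 to 3 lower and 0 to 1 higher in SLC38, and 2 higher in SLC43. Slc38a10 ranged from -0.047 without WT replicate 1 to 0.11 and was -0.010 without Hom replicate 1, and Slc38a11 ranged from -0.038 without WT replicate 2 to 0.31. The log2 ratio of Slc43a1 to Slc7a5 went from 0.14 to -0.09 without WT replicate 1 and -0.13 without Hom replicate 1, and was 0.42 without Hom replicate 3. For the lists, without WT replicate 1 or Hom replicate 1, lower counts were 5 to 10 for glutamine, 4 to 7 for arginine and 8 to 13 for mTORC1 genes, and higher counts 2 to 3 for glutathione genes.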
